A study of Mus musculus with 20 samples.

Results

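C2cd4a, Klhdc7a, Gm6093, Prss50, Tac2, Gm10371 and 4930426D05Rik are 7 little-studied genes whose RNA stood far apart between vehicle-treated and oxaliplatin-treated mouse bone marrow. They were picked by name out of the 55486 genes of the count tables because their marrow levels differed so strongly, so their marrow values are a description and carry no test. Kidney RNA of the same treatment groups had no part in the choice and is tested. C2cd4a, Klhdc7a and Gm6093 were higher after oxaliplatin, and Prss50, Tac2, Gm10371 and 4930426D05Rik were lower. Of the 7 genes, 4 code for protein and 3 are annotated as non-coding RNA, and they lie on 6 chromosomes.

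Oxaliplatin is a platinum chemotherapy drug that binds DNA. C57BL/6 mice, 10 weeks old at the start and of both sexes according to the methods, were given either oxaliplatin (10 mg/kg, intraperitoneal) or its vehicle, 5% dextrose, over 8 weeks. Marrow was spun out of the leg bones once 6 days had passed without a dose, and the timing of the kidney collection is not given in the sources used here. Each tissue and treatment had 5 libraries, described as biological replicates, which makes 20 in all. Y-linked genes were expressed in every marrow library, so none of these came from females alone. All groups shared the dextrose injections, the strain and the schedule.

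Bone marrow is the site of blood formation, where stem and progenitor cells give rise to red cells, platelets, granulocytes, monocytes and B cells among stromal cells, vessels and fat cells. Platinum drugs deplete dividing progenitors, and fat cells are known to fill marrow that has lost its blood-forming cells. The 7 genes belong to no common pathway. C2cd4a encodes a protein with a C2 domain known from pancreatic islets and blood vessels. Klhdc7a encodes a kelch-repeat protein, Prss50 a serine protease of the testis, and Tac2 the precursor of the neuropeptide neurokinin B. Gm6093, Gm10371 and 4930426D05Rik have no assigned function.

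Counts summed to between 30660153 and 41140527 per marrow library and to between 24393007 and 30925430 per kidney library. Levels are given as CPM, counts scaled to library size (per 1e6 counts) and by the TMM method of edgeR within each tissue, and 3 counts, taken as the floor of detection, correspond to 0.0668 to 0.0975 CPM in marrow and 0.0900 to 0.130 CPM in kidney. Floors and exact counting intervals cover counting error only, whereas the 95% intervals of fitted fold changes also hold the spread between libraries. Genes of the 8-member kidney tubule list summed to between 17500 and 29800 CPM in the kidney libraries and to at most 12.9 CPM in the marrow libraries. Over the whole marrow table, late erythroid markers fell and adipocyte and skeletal muscle markers rose (17 of 17, 9 of 9 and 7 of 8 genes). In bulk RNA, fewer cells of a type and less RNA per cell cannot be told apart.

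The start regions of the 3 higher genes are shown first, because they can be compared with each other and with other mouse promoters. Each is 250 bases long, ends at the base before the annotated start, reads 5′ to 3′ on the gene's strand, and comes from RefSeq with GRCm38.p6 coordinates. The windows are chr9:67832331-67832580 on the minus strand for C2cd4a, chr13:33569318-33569567 on the minus strand for Gm6093 and chr4:139968027-139968276 on the minus strand for Klhdc7a. Capitals mark the TATAAA box in C2cd4a and Gm6093 and a match to the p53 half-site in Klhdc7a.
C2cd4a: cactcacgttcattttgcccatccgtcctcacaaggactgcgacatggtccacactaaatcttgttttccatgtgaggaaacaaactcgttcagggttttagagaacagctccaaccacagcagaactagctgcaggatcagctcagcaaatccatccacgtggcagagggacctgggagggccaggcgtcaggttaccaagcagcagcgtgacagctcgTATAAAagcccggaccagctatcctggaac
Gm6093: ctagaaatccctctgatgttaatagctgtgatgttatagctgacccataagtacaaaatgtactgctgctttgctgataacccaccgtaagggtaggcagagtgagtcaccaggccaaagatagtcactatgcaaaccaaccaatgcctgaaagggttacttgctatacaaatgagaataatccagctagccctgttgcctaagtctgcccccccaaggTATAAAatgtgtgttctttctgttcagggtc
Klhdc7a: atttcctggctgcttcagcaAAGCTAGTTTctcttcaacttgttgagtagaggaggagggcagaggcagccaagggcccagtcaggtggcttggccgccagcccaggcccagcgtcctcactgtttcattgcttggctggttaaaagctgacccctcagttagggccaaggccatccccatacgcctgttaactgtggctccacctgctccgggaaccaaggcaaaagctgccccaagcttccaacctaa

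TATAAA, the core of the TATA box that positions transcription starts, began 30 bases before the start of C2cd4a and 31 bases before the start of Gm6093. Promoter windows of 300 bases, which add 50 bases after the start, were held for 6 of the 7 genes, and TATAAA stood in 2 of these and in 13.6% of 32851 mouse windows searched on both strands. A p53 half-site was found in 1 of the 6 windows, that of Klhdc7a, 230 bases before the start, and in 8.36% of all windows. None of the windows of Prss50, Tac2 and Gm10371, the lower genes with a window, held TATAAA or a p53 half-site. The letters GATA, bound by erythroid and megakaryocytic factors, stood in 5 of the 6 windows and in 57.9% of all. A match is a description of the letters and not of binding.

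Among the 22363 genes tested in marrow, Gm6093 and C2cd4a had the largest and second largest fitted rise and Klhdc7a the 7th largest. Prss50, Tac2, Gm10371 and 4930426D05Rik ranked 6th, 8th, 9th and 13th among the falls. The groups did not overlap for any of the 7 genes, which also held for 24.9% of all genes tested. With the call rule used below for other genes, an adjusted p under 0.05 and a change beyond 1.5-fold, 11.6% of the genes tested were called higher and 11.8% lower in marrow. Since the genes were chosen on this contrast, nothing is read from these counts.

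**Figure D1:**
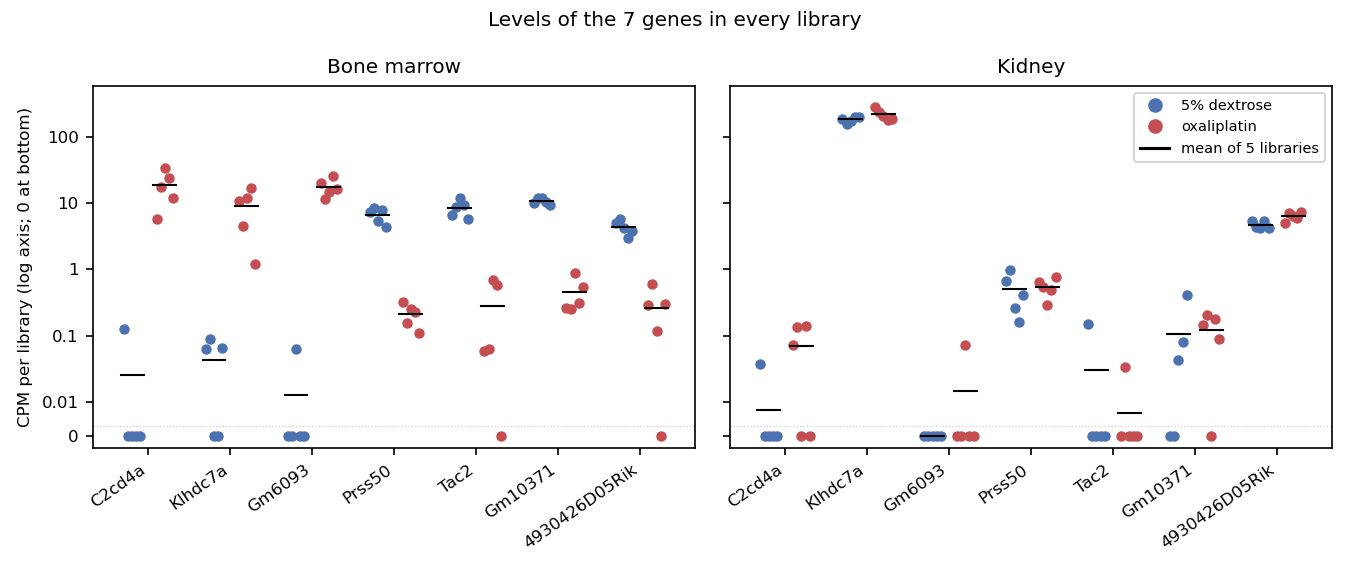
CPM of the 7 genes in each of the 20 libraries, on a log axis with 0 drawn below the dotted line; points are libraries, bars the mean of 5. In marrow the groups are apart for all 7 genes, and in kidney they overlap for all 7.

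C2cd4a (ENSMUSG00000047990, chr9:67830489-67832330, minus strand, GRCm38) was nearly silent in control marrow. It had 4 counts in vehicle library 1, which is 0.127 CPM, and 0 counts in the other 4 vehicle libraries. In oxaliplatin libraries 1 to 5 it stood at 5.73, 18.0, 34.0, 23.9 and 12.2 CPM. The mean went from 0.0253 ± 0.0566 to 18.7 ± 10.9 CPM (SD, n = 5 each), and the treated libraries spread over 5.93-fold among themselves.

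Pooled over libraries, C2cd4a had 802 times as many counts per unit of depth after oxaliplatin, with an exact 95% counting interval of 313 to 2940. The fitted log2 fold change was 9.39 (SE 0.78). It leaned on the 4 counts of vehicle library 1, since without that library all controls were at 0 and the fitted value became 12.40. No other annotated transcript matched that of C2cd4a at 95% identity or more over at least 60 bases.

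Gm6093 (ENSMUSG00000112963, chr13:33562486-33569317, minus strand), annotated as a long intergenic non-coding RNA with 4 exon blocks, went from silence to a similar level. It had 2 counts in vehicle library 3, or 0.0630 CPM, and none in the other vehicle libraries. Oxaliplatin libraries 1 to 5 held 20.6, 11.7, 14.8, 25.7 and 16.8 CPM. It was the most even of the 3 higher genes, with a 2.20-fold spread between treated libraries and a mean of 17.9 ± 5.41 CPM (SD, n = 5).

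The pooled count ratio of Gm6093 was 1500, with an exact 95% counting interval of 414 to 12400, and the log2 fold change was 10.15 (SE 0.49). Without vehicle library 3 it became 12.33, again because all controls were then at 0. The exons of Gm6093 overlap those of 2 other annotated genes, Gm25043 by 212 bases and Gm47916 by 185 bases. Reads in those shared bases may have been left uncounted or given to either gene.

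Klhdc7a (ENSMUSG00000078234, chr4:139960220-139968026, minus strand) is a single-exon gene and was the most uneven of the higher genes. Vehicle libraries 1 to 5 held 0.0633, 0.0873, 0, 0 and 0.0650 CPM, from 7 counts in all. Oxaliplatin libraries 1 to 5 held 10.9, 4.51, 12.1, 17.3 and 1.21 CPM, a 14.3-fold spread with library 5 lowest and library 4 highest. The mean after oxaliplatin was 9.19 ± 6.37 CPM (SD, n = 5), the pooled count ratio 227 (exact 95% counting interval 110 to 566) and the log2 fold change 7.63 (SE 0.87). Stretches of its 7807-base transcript matched transcripts of 16 other genes at 95% identity or more, over at most 426 bases, so reads there could have been set aside as not unique.

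Per length, the order after oxaliplatin was C2cd4a at 13.4, Gm6093 at 5.26 and Klhdc7a at 1.18 mean CPM per kilobase of exon. C2cd4a (4.11 to 24.4) and Gm6093 (3.43 to 7.54) overlapped between libraries on that scale, and Klhdc7a (0.155 to 2.21) lay below both. The treated libraries did not rank alike in the 3 genes. Library 3 was highest for C2cd4a and library 4 for Klhdc7a and Gm6093, while the lowest was library 1 for C2cd4a, library 5 for Klhdc7a and library 2 for Gm6093.

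**Figure D2:**
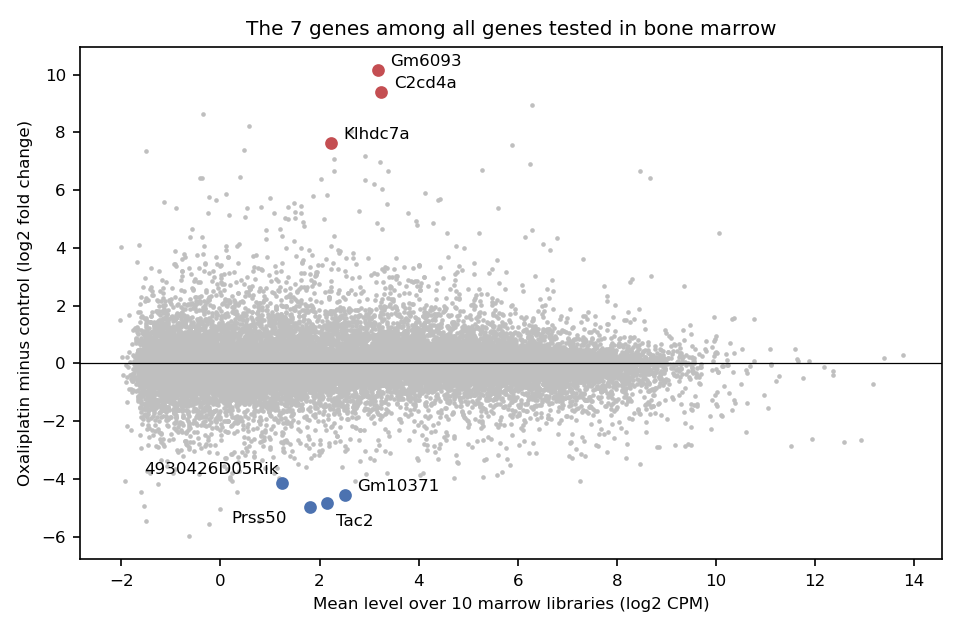
Log2 fold change (oxaliplatin minus vehicle) against the mean level in log2 CPM for the 22363 genes tested in marrow (grey), with the 3 higher genes in red and the 4 lower genes in blue. Gm6093 at 10.15 and C2cd4a at 9.39 lie above all other genes tested.

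The lower genes all started from modest levels and fell to low ones. Tac2 had 0 counts in oxaliplatin library 5 and 4930426D05Rik had 0 in oxaliplatin library 4. Prss50 (ENSMUSG00000048752, chr9:110857967-110864629, plus strand), the testis protease gene, held 7.53, 8.53, 5.36, 7.84 and 4.39 CPM in vehicle libraries 1 to 5. Oxaliplatin libraries 1 to 5 held 0.317, 0.157, 0.256, 0.223 and 0.108 CPM, from 41 counts in all. Each treated library was therefore above 0 and far below the lowest control. The pooled level was 31.7 times lower (exact 95% counting interval 23.2 to 44.5), and the log2 fold change was -4.96 (SE 0.31).

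Of the 9 male germ cell markers fixed as a list, 1 had enough counts in marrow, and it fell too. This was Ddx4, an RNA helicase of the germ line, with a log2 fold change of -3.61 (SE 0.38, edgeR adjusted p = 1.33e-05). The other 8 germ cell genes stayed at or below 0.315 CPM in every marrow library and gave no test.

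Tac2 (ENSMUSG00000025400, chr10:127724478-127731768, plus strand) held 6.71, 8.73, 12.2, 9.49 and 5.75 CPM in the vehicle libraries. After oxaliplatin it held 0.0576, 0.0627, 0.699, 0.579 and 0 CPM in libraries 1 to 5. Libraries 3 and 4 carried 56 of its 60 remaining counts, and the other 3 libraries held at most 2 counts each. The pooled level was 27.5 times lower (exact 95% counting interval 21.2 to 36.2), and the log2 fold change was -4.84 (SE 0.69).

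The same 2 treated libraries had the lowest neutrophil marker sums, 11300 and 13300 CPM against 23500 to 30000 CPM in the other 3. Their early erythroid sums were the highest, 3550 and 2390 CPM against 1670 to 2280 CPM. Late erythroid sums did not follow, at 7840 and 5010 CPM in those 2 against 6710 to 12000 CPM in the other 3. Control marrow held 21300 to 25800 CPM of the neutrophil list and 5080 to 7120 CPM of the early erythroid list. The part of cell make-up in the Tac2 difference was not tested.

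Gm10371 (ENSMUSG00000072589, chr14:47097679-47116161, minus strand) was the most even of the lower genes in control marrow, at 10.3, 12.2, 12.1, 10.5 and 9.36 CPM in vehicle libraries 1 to 5. After oxaliplatin it held 0.259, 0.251, 0.886, 0.312 and 0.539 CPM, with library 3 highest. The pooled level was 23.5 times lower (exact 95% counting interval 19.0 to 29.4), and the log2 fold change was -4.57 (SE 0.32). Its biotype in the annotation is antisense, and it overlaps part of the body of Samd4, on the other strand, without sharing exon bases. As the strand setting of the counting is not given, reads of Samd4 from that part may have been counted for it. Stretches of its transcripts matched those of 31 other genes at 95% identity or more, over at most 66 bases. Reads there could have been set aside as not unique.

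In control marrow the levels per kilobase of exon were 6.22 CPM for Tac2 (4.17 to 8.83), 5.16 CPM for Gm10371 (4.43 to 5.80) and 4.62 CPM for Prss50 (3.01 to 5.86), which overlapped between libraries. The fourth lower gene, 4930426D05Rik, lay below them at 1.46 CPM per kilobase of exon (0.988 to 1.92). Across the 17 refits in which each gene could be fitted, none of the 7 genes changed direction. Nothing is read from this either, since the genes were chosen on this contrast.

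Of the 5 neighbours of Gm10371 tested in marrow, 4 fell. The exception was Gm48958 (log2 fold change -0.63, 95% interval -1.52 to 0.27, edgeR adjusted p = 0.279), and Mir378c and Gm15562 had too few counts to be tested. Gm10371 and Gm49132, a provisional transcript, point away from each other with 134 bases between their starts. The 250 bases before the Gm10371 start (chr14:47116162-47116411, RefSeq, GRCm38.p6, read on the minus strand) are shown with those 134 bases in capitals.
Gm10371: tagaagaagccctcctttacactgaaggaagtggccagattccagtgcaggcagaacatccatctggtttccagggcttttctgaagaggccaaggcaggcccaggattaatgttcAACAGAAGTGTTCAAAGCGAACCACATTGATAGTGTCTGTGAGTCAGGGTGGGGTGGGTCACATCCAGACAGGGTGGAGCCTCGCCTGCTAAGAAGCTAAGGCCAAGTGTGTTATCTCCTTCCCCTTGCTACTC

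Gm49132 held 2.76 to 4.22 CPM in vehicle marrow and 0.0288, 0, 0.233, 0 and 0.0809 CPM in oxaliplatin libraries 1 to 5. Its log2 fold change was -5.44 (SE 0.59, edgeR adjusted p = 1.65e-05). Library 3 was highest among the treated libraries for both members of the pair and library 5 second. With group means subtracted, their log2 CPM had a Pearson r of 0.91 and a Spearman rho of 0.85 over 10 marrow libraries, and r was 0.69 without the 2 libraries farthest from the median.

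Gch1, which encodes the rate-limiting enzyme of tetrahydrobiopterin synthesis, has its nearer end, which is its 3′ end, 37733 bases from Gm10371 and went from between 82.7 and 112 CPM to between 7.95 and 11.4 CPM (n = 5 each; log2 fold change -3.32, SE 0.13, edgeR adjusted p = 1.15e-08). The Gm49134 pseudogene, which lies within the span of Gch1 on the other strand, fell by 3.99 on the log2 scale (SE 0.56, edgeR adjusted p = 0.00012). Since the strand setting of the counting is not given, reads of Gch1 and Gm49134 may not be fully told apart. Samd4, the RNA-binding repressor gene that Gm10371 overlaps in part, fell less, from 18.4 ± 1.25 to 10.3 ± 2.12 CPM (log2 fold change -0.84, SE 0.14, edgeR adjusted p = 0.000512). Neither Gch1 nor Samd4 followed Gm10371 from library to library within groups (r = -0.12 and -0.17, rho = -0.28 and -0.10 over 10 libraries). Without the 2 farthest libraries r was -0.34 for Gch1 and -0.79 for Samd4. For Gm49134 r was -0.46 and rho -0.24 over 10 libraries, and r was 0.18 without the 2 farthest.

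**Figure D3:**
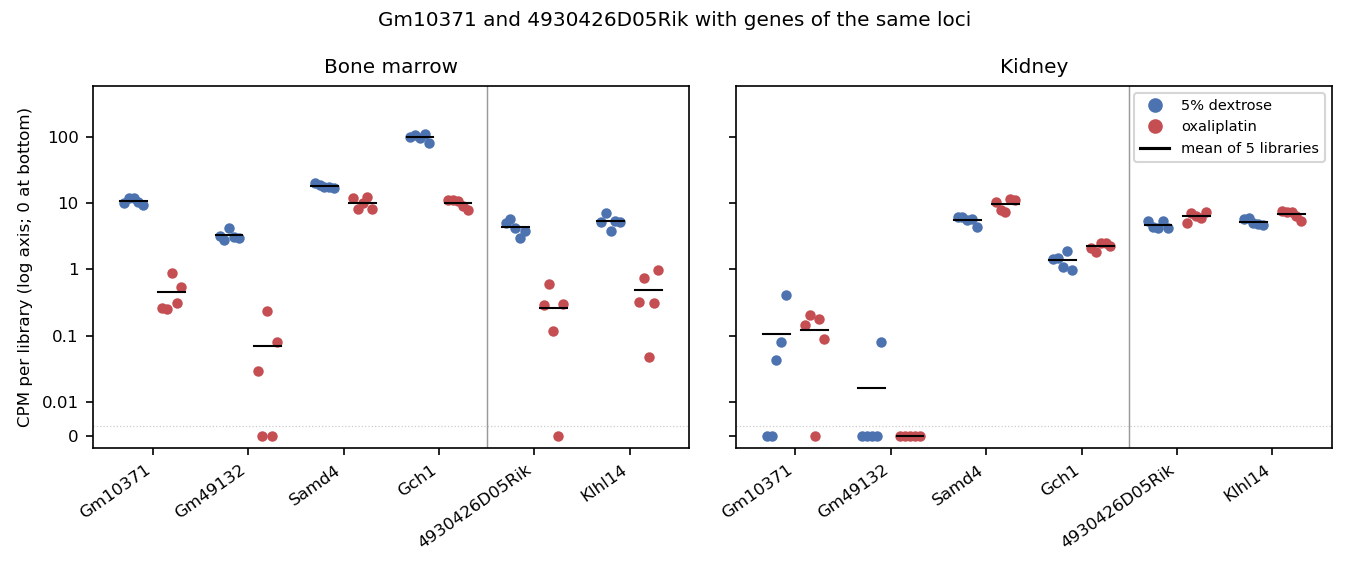
CPM per library on a log axis, with 0 below the dotted line and bars for the mean of 5, for Gm10371 and 3 genes of its locus and for 4930426D05Rik and Klhl14. All 6 genes are lower in treated marrow without overlap, whereas in kidney Samd4 is higher without overlap and Gch1, 4930426D05Rik and Klhl14 overlap.

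4930426D05Rik (ENSMUSG00000043168, chr18:21651448-21656105, plus strand) has the biotype antisense and shares 610 exon bases with Klhl14 on the other strand. Whether the counting used strand is not stated, so reads of the pair may not be fully told apart. It held 5.13, 5.76, 4.22, 2.96 and 3.87 CPM in vehicle libraries 1 to 5 and 0.288, 0.595, 0.117, 0 and 0.297 CPM in oxaliplatin libraries 1 to 5. The groups were far apart, with library 2 highest and library 4 at 0 among the treated. The pooled level was 18.7 times lower (exact 95% counting interval 13.8 to 25.8), and the log2 fold change was -4.13 (SE 0.57).

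Klhl14 encodes a kelch-like adaptor known from B cells. In vehicle libraries 1 to 5 it held 5.25, 7.22, 3.81, 5.50 and 5.20 CPM and in oxaliplatin libraries 1 to 5 0.317, 0.752, 0.0466, 0.312 and 0.997 CPM. It fell by 3.49 on the log2 scale (SE 0.50, edgeR adjusted p = 0.000166). Vehicle library 2 was highest for both genes, but library 5 was highest for Klhl14 after oxaliplatin. With group means subtracted r was 0.47 and rho 0.62 over 10 libraries, and r was 0.65 without the 2 farthest.

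B cell markers fell in the same libraries. Of the 16 genes of the B cell list, 14 were lower and none higher, with a median log2 fold change of -2.10 against -0.04 over all genes tested. Their sum was 934 to 1530 CPM in control and 361 to 448 CPM in treated marrow. Pax5, the B lineage master regulator, fell by 2.82, and Rag1, the recombinase of developing lymphocytes, fell by 3.40 on the log2 scale (edgeR adjusted p = 1.93e-06 and 0.0374). The part of B cell content in the lower Klhl14 and 4930426D05Rik was not tested.

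Among all 43 distinct neighbours, the 3 annotated genes on each side of each member and any overlapping gene, 16 passed the filter on low counts in marrow. Of these, 6 were called lower and 2 higher, against a background of 11.8% and 11.6%, and 4 of the 6 lie at the Gm10371 locus. Among those 4, reads of Gch1 and Gm49134 may not be fully told apart. The other lower neighbours were Klhl14 and Nemp1, a nuclear envelope gene 23428 bases from Tac2 (log2 fold change -1.19, SE 0.097, edgeR adjusted p = 1.64e-06). Als2cl, near Prss50, rose by 0.81 (SE 0.14, edgeR adjusted p = 0.00074), and Asxl3, a Polycomb-associated gene 688777 bases from 4930426D05Rik, rose from 0.103 ± 0.127 to 1.06 ± 0.291 CPM (SD, n = 5 each; edgeR adjusted p = 0.00243).

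No neighbour of the 3 higher genes was called in marrow, but few could be tested. None of the neighbours of Gm6093 or Klhdc7a had enough counts to be tested. Gm47916, which overlaps Gm6093, held 0 CPM in the vehicle libraries and 0.0288 to 0.189 CPM in the oxaliplatin libraries. C2cd4b, the closest relative and a neighbour of C2cd4a at 69558 bases, had no count in control marrow and 2, 8, 4, 4 and 4 counts in oxaliplatin libraries 1 to 5, at most 0.251 CPM. Vps13c, a lipid transfer gene 8065 bases from C2cd4a, had a log2 fold change of 0.29 (SE 0.10, edgeR adjusted p = 0.0483), short of 1.5-fold.

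Tac2 is one of several tachykinin genes. Its product neurokinin B acts mainly on the receptor of Tacr3, while the receptor of Tacr1 prefers substance P, a product of Tac1, and hemokinin-1, a product of Tac4. Of the 6 other genes of the system, 3 were tested in marrow, and 2 of them rose. Over all genes tested, 11.6% were called higher. Tacr1 held 0.127, 0.349, 0.315, 0 and 0.227 CPM in vehicle libraries 1 to 5 and 4.15, 3.73, 4.47, 4.54 and 4.96 CPM in oxaliplatin libraries 1 to 5. The receptor gene was thus even across treated mice and far above every control (log2 fold change 4.41, SE 0.47, edgeR adjusted p = 1.32e-05).

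Mme, which encodes neprilysin, a peptidase that degrades tachykinins, rose from 18.3 ± 3.46 to 30.9 ± 10.4 CPM (SD, n = 5 each; log2 fold change 0.76, SE 0.22, edgeR adjusted p = 0.0186), with overlap between the groups. The call of Mme was lost without oxaliplatin library 4 (edgeR adjusted p = 0.0505). Tac4 stood at 1.93 ± 0.651 and 1.66 ± 0.497 CPM (log2 fold change -0.22, 95% interval -0.87 to 0.43, edgeR adjusted p = 0.624). Tac1, Tacr2 and Tacr3 had at most 8 counts in any marrow library and were not tested. Tacr3, the receptor gene that matches the Tac2 product, had at most 2 counts, so a change in it was not detectable at this depth.

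**Figure D4:**
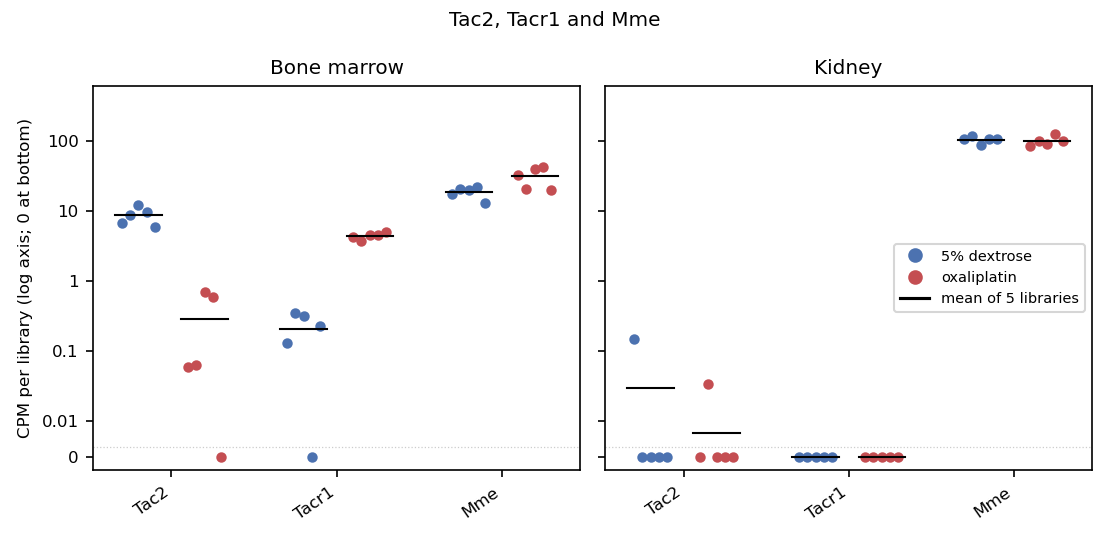
CPM per library of Tac2, Tacr1 and Mme on a log axis, with 0 below the dotted line and bars for the mean of 5 libraries. In marrow Tac2 is lower and Tacr1 higher in all 5 treated libraries than in any control, and in kidney Tacr1 has no count in any library.

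Relatives of the other coding members gave no call in marrow. No other C2cd4 gene had enough counts to be tested. Of 9 Klhdc genes 7 were tested and none called, although Klhdc2, a substrate receptor of a ubiquitin ligase, had a log2 fold change of -0.46 (SE 0.11, edgeR adjusted p = 0.0047), short of 1.5-fold. Of 14 Prss genes 4 were tested and none called, and Prss57, a neutrophil granule protease, stood at 31.7 ± 2.11 and 30.9 ± 6.83 CPM (log2 fold change -0.04, 95% interval -0.32 to 0.24). In all, 2 of 14 tested relatives were called, both higher. Over all genes tested in marrow, 11.6% were called higher and 11.8% lower.

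Klhdc7a varied between treated mice as lipid droplet genes did. Over the 10 marrow libraries with group means subtracted, the genes most like it among 15051 searched were Lgals12 (r = 0.985), a galectin of fat cells, Bcar3 (r = 0.966), a signalling adaptor, and Plin4 (r = 0.964), a lipid droplet protein. In oxaliplatin libraries 1 to 5 Lgals12 held 9.42, 4.58, 10.5, 13.6 and 1.27 CPM and Plin4 172, 71.6, 209, 255 and 38.3 CPM, the order of the libraries in Klhdc7a. For Lgals12 and Plin4 rho was 0.92 each, and r was 0.96 each without the 2 libraries farthest from the median. Both genes were picked by their r over these same libraries, so these values are no separate check. Vehicle libraries held 0 to 3 counts of Klhdc7a, so its r values rest largely on the treated libraries.

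All 9 adipocyte markers rose in marrow, with a median log2 fold change of 3.83. Plin1, which coats the lipid droplet of fat cells, rose by 6.92, and Adipoq, the adiponectin gene, by 2.89 (edgeR adjusted p = 9.96e-05 and 8.61e-05). Their summed level was 180 to 277 CPM in control marrow and 3340, 1750, 3060, 3540 and 958 CPM in oxaliplatin libraries 1 to 5. Klhdc7a followed the list mean less closely than it followed Plin4 (r = 0.80, rho = 0.70 over 10 libraries). Without the 2 farthest libraries r was 0.39, so this relation rested on them. The r of Klhdc7a was 0.79 with the stroma and osteoblast list and 0.77 with the plasma cell list. The adipocyte list did not stand apart from these. Y-linked genes, summed, were also lowest in treated library 5 (99.1 CPM against 133 to 173 CPM in the other 9), and their r with Klhdc7a was 0.92. The part of fat cell content, or of whatever set library 5 apart, was not tested.

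**Figure D5:**
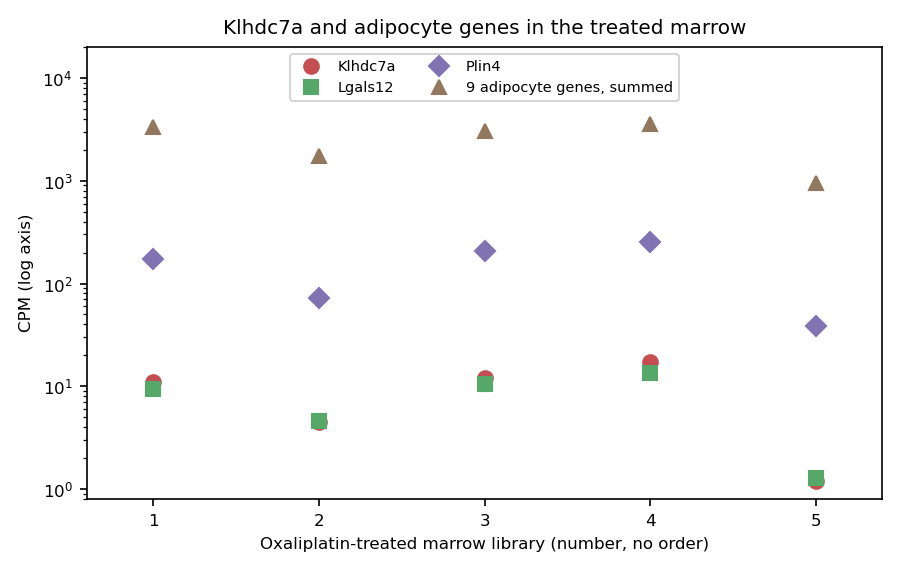
CPM on a log axis of Klhdc7a, Lgals12, Plin4 and the sum of 9 adipocyte marker genes in the 5 oxaliplatin-treated marrow libraries. All 4 quantities are lowest in library 5, second lowest in library 2 and highest in library 4.

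The other members had their own nearest genes. C2cd4a was most like Dusp19 (r = 0.940), Intu (0.926) and Fcho1 (0.916), of which only Fcho1, an endocytosis gene, was called in marrow (log2 fold change -1.20, edgeR adjusted p = 1.4e-05). For Gm6093 they were Tmem198b (r = 0.920) and the antibody genes Ighg3 (0.904) and Igkv3-5 (0.902), none of which was called. Prss50 was most like Gstt2 (r = 0.969), Mtarc2 (0.953) and Mblac1 (0.945), also without a call. The likeness concerns deviations within groups only, since group means were subtracted. In vehicle marrow C2cd4a had counts only in library 1 (4 counts) and Gm6093 only in library 3 (2 counts). Their r values therefore rest largely on the treated libraries. Prss50 held 4 to 11 counts in the treated libraries, so counting error enters its r values.

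Tac2 was most like Pmepa1 (r = 0.976), Pkhd1l1 (0.970) and Cercam (0.969). Pmepa1 did not fall with Tac2 and was not called (log2 fold change 0.85, SE 0.31, edgeR adjusted p = 0.0522). Pkhd1l1, a large membrane protein gene, fell from between 225 and 266 CPM to between 15.2 and 38.0 CPM (log2 fold change -3.28, SE 0.23, edgeR adjusted p = 6.45e-07). Gm10371 was most like Gm11427 (r = 0.945), Atr (0.930) and Atg2b (0.925), and 4930426D05Rik was most like Eps8l1 (r = 0.983), Zranb1 (0.931) and Mindy2 (0.929). Cercam fell by 0.79 (SE 0.14, edgeR adjusted p = 0.000564). Of the last 6 genes, Gm11427 (-1.09, edgeR adjusted p = 9.8e-05) and Eps8l1 (-1.37, edgeR adjusted p = 0.015) were called lower. These are the top 3 of 15051 genes over 10 libraries and share depth and cell make-up. Treated libraries held 0 to 30 counts of Tac2, 8 to 38 of Gm10371 and 0 to 19 of 4930426D05Rik, so counting error enters here too.

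Each member was also set against the marker lists within groups, as a description over 10 libraries that share depth and cell make-up. The limits of low counts given above hold here too. The strongest relations were those of Tac2 with the neutrophil list (r = -0.92, rho = -0.89), Klhdc7a with the Y-linked list (r = 0.92, rho = 0.79) and Gm10371 with the eosinophil list (r = -0.90, rho = -0.85). Prss50 went with the adipocyte list (r = 0.88, rho = 0.76), Tac2 with the early erythroid list (r = 0.87, rho = 0.93) and C2cd4a against the monocyte list (r = -0.86, rho = -0.95). Klhl14's antisense partner 4930426D05Rik went against the B cell list within groups (r = -0.79, rho = -0.73), although both were lower after treatment. Gm6093 followed no list beyond r = 0.59, that of stem and progenitor markers. The r of 0.51 between Gm10371 and the early erythroid list turned to -0.23 without oxaliplatin library 3.

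The lists themselves moved with treatment as follows. Over all genes tested in marrow, 11.6% were called higher and 11.8% lower, with a median log2 fold change of -0.04. Eosinophil genes fell in 5 of 6 cases (median log2 fold change -1.63), early erythroid genes in 11 of 15 (-1.24) and plasmacytoid dendritic cell genes in 5 of 7 (-1.51). Megakaryocyte genes rose in 7 of 9 cases (0.68), p53 target genes in 11 of 18 with 1 lower (0.84), and stem and progenitor genes in 6 of 10 (0.91). Plasma cell genes rose in 4 of 6 cases (0.86), endothelial genes in 4 of 8 (0.76) and stroma and osteoblast genes in 2 of 10 (0.38). None of the 14 neutrophil genes was called, and of the 8 monocyte genes 2 rose and 2 fell. Of the 14 macrophage genes 5 rose and 2 fell, and of the 10 mast cell and basophil genes 3 rose and 4 fell. The part of these cell types in the levels of the 7 genes was not tested.

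Kidney gave a different picture, with 4 of the 7 genes near 0. C2cd4a had 1 count over the vehicle and 10 over the oxaliplatin libraries, Gm6093 0 and 2, Tac2 4 and 1, and Gm10371 13 and 18, all too few to be tested. In this tissue 11.5% of 19293 genes were called, and 29.4% had an adjusted p under 0.05 whatever their fold change. Of the 3 members tested, none was called, 1 had an edgeR adjusted p under 0.05 and 2 an unadjusted p under 0.05, and DESeq2 called none either. Whether the response differed between the tissues was not tested, since the marrow response chose the genes.

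Klhdc7a was a strongly expressed kidney gene. Vehicle libraries 1 to 5 held 190, 162, 180, 201 and 202 CPM and oxaliplatin libraries 1 to 5 held 287, 243, 211, 184 and 188 CPM, with overlap between the groups. The log2 fold change was 0.25 (SE 0.11, 95% interval 0.01 to 0.49, edgeR adjusted p = 0.103). Without oxaliplatin library 4 or 5 the adjusted p of edgeR was 0.038 and 0.049. On CPM scaled separately in each tissue, treated marrow at 9.19 ± 6.37 CPM stayed far below control kidney at 187 ± 16.7 CPM.

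4930426D05Rik was expressed in kidney at about its level in control marrow and was somewhat higher after oxaliplatin. Vehicle libraries 1 to 5 held 5.49, 4.46, 4.19, 5.43 and 4.29 CPM and oxaliplatin libraries 1 to 5 held 5.13, 7.07, 6.44, 5.93 and 7.47 CPM, with only treated library 1 inside the control range. The log2 fold change was 0.43 (SE 0.14, 95% interval 0.13 to 0.72, edgeR adjusted p = 0.0308), short of 1.5-fold. Without vehicle library 2, 3 or 5 or oxaliplatin library 2 or 5 the adjusted p of edgeR lay between 0.0606 and 0.0788, and it was 0.080 with a replicate block.

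Its overlapping partner Klhl14 behaved alike in kidney, at 5.32 ± 0.569 CPM with vehicle and 6.90 ± 0.946 CPM with oxaliplatin (SD, n = 5 each; log2 fold change 0.37, edgeR adjusted p = 0.0439), also short of 1.5-fold. That value was above 0.05 in 8 of 18 refits, up to 0.102. Both genes of the pair were thus lower in treated marrow and a little higher in treated kidney. Prss50 was barely present in kidney, at 0.161 to 0.991 CPM with vehicle and 0.288 to 0.780 CPM with oxaliplatin (log2 fold change 0.13, 95% interval -0.79 to 1.06, edgeR adjusted p = 0.847).

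Among the Gm10371 neighbours, Samd4, Gch1 and Gm48958 (log2 fold change 1.16, edgeR adjusted p = 0.020) rose in kidney. Samd4 rose from 5.65 ± 0.759 to 9.83 ± 1.96 CPM (SD, n = 5 each; log2 fold change 0.80, SE 0.15, edgeR adjusted p = 0.000719), without overlap. Gch1, at a low level here, rose from 1.38 ± 0.379 to 2.23 ± 0.285 CPM (log2 fold change 0.69, SE 0.22, edgeR adjusted p = 0.0234). Its adjusted p was 0.0624 without vehicle library 3 and 0.0641 without vehicle library 5. Gm49132 had 2 counts in the 10 kidney libraries together.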

How the data were processed

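The authors deposited raw counts per gene, the number of uniquely aligned, unambiguous reads, for each marrow and kidney library. Their methods give STAR alignment to Ensembl release 101 and counting in Partek Flow, whereas the submitters' processing notes list STAR 2.7.9a and featureCounts. Library chemistry is also given differently, as SMARTer cDNA in the methods and as ribosomal RNA removal with random hexamers in the sample records. The strand setting of the counting is not given in the sources used here.

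Of 55774 lines per table, 1 with a missing value and 287 repeated identifiers were left out. Marrow and kidney were handled apart. Genes kept by filterByExpr (minimum count 10) were scaled with TMM factors, and edgeR 4.0.16 under R 4.3.3 gave the two-sided quasi-likelihood test, robust, with treatment as its only term, with Benjamini-Hochberg adjustment over all genes tested. Calls needed an adjusted p under 0.05 and a change beyond 1.5-fold. The step was tested on simulated data. Standard errors come from the quasi-likelihood F. Exact counting intervals are conditional binomial intervals of pooled counts scaled by effective library size. Log2 CPM for likeness used a prior count of 2, and like genes needed a mean log2 CPM of at least 1. Within a group no 2 libraries agreed within sampling noise.

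The members and all lists were chosen with earlier results of these data known. Named genes are the members, their families, the 3 neighbours on each side, marker lists and the 3 most alike genes. Positions come from GENCODE mouse release 21 on GRCm38, which covers 55227 of 55486 identifiers. Transcripts were compared with blastn 2.17.0. Alternatives were DESeq2 1.42.0, median ratio factors, library size alone, other filters, hemoglobin genes left out, a replicate block, a Y-linked covariate, other call rules and each library left out. Figures used Python 3.11.15 and matplotlib 3.10.9.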

Additional observations from a re-analysis of the deposited data

Results flagged for a closer look

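Among 64 groups of 5 libraries of the genes given by library, 10 had 1 library standing apart by Dixon's ratio. The cutoff was set for about 5% of groups, a rate that does not hold for counts near 0. In 9 of them that library held 1 to 4 counts and the other 4 held none. The ratio is then 1 whatever the count, so nothing is read from the number of groups flagged. These were C2cd4a in vehicle marrow library 1 (0.127 CPM) and vehicle kidney library 1 (0.0373 CPM), and Gm6093 in vehicle marrow library 3 (0.063 CPM) and oxaliplatin kidney library 3 (0.0719 CPM). Tac2 stood apart in vehicle kidney library 1 (0.149 CPM) and oxaliplatin kidney library 2 (0.0337 CPM). Gm49132 did so in vehicle kidney library 5 (0.081 CPM), and Gm49134 in vehicle kidney library 4 (0.0805 CPM) and oxaliplatin kidney library 3 (0.0719 CPM). The other was Gm10371 in vehicle kidney library 5, with 10 counts or 0.405 CPM against at most 0.0805 CPM in the other 4.

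For 2 neighbour genes all treated libraries lay on one side of all controls in marrow and on the other side in kidney. In marrow alone the groups did not overlap for 24.9% of all genes tested. The share that switched sides between the tissues was not worked out, so nothing is read from the count. Samd4 had a log2 fold change of -0.84 in marrow and 0.80 in kidney, and Asxl3 of 3.31 in marrow and -0.91 in kidney. The difference between the tissues was not tested.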

How the results depend on the processing

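None of the 7 genes changed direction in marrow in any refit, but nothing is read from this, since they were chosen on this contrast. Leaving out a library cannot make groups overlap that were apart, so the separation was not checked in that way. In kidney, 1 member instead of 0 was called on adjusted p alone. The kidney log2 fold change of Klhdc7a was 0.38 with library size alone (edgeR adjusted p = 0.0087) and 0.26 with a Y-linked covariate (edgeR adjusted p = 0.00283), both past the threshold, and 0.15 to 0.32 with each library left out. That of 4930426D05Rik was 0.42 with a replicate block (edgeR adjusted p = 0.080) and 0.37 to 0.50 with each library left out. That of Prss50 ran from -0.09 to 0.54 with each library left out, being -0.02 without vehicle library 3, -0.09 without vehicle library 4 and -0.02 without oxaliplatin library 5. Called relatives in marrow numbered 4 with no filter beyond 1 count, 1 with at least 10 counts in every library and 1 beyond 2-fold, against 2, and called neighbours numbered 4 with at least 10 counts in every library, against 8. The r of Klhdc7a with the adipocyte list was 0.60 with a prior count of 0.5 and 0.47 to 0.95 with each library left out. The r of Gm10371 with the early erythroid list was 0.51, and -0.23 to 0.81 with each library left out, turning sign without oxaliplatin library 3. Apart from the fold changes of C2cd4a and Gm6093 given with their values, the causes were not tested.

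Libraries of the same number did not pair, with correlations of their deviations from -0.118 to 0.228 in marrow and from -0.154 to 0.0754 in kidney. The replicate block gave 9 called neighbours and 2 called relatives in marrow. At this depth C2cd4a, Gm6093, Tac2 and Gm10371 could not be compared in kidney. Controls at 0 to 4 counts leave the size of the marrow difference of C2cd4a and Gm6093 open. The counting intervals given do not bound that size, since they cover counting error only. The fitted log2 fold changes had intervals of 7.67 to 11.11 for C2cd4a and 9.1 to 11.2 for Gm6093. The value was 12.4 for C2cd4a without vehicle library 1 and 12.33 for Gm6093 without vehicle library 3, both above these intervals.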
